A study of Rattus norvegicus with 16 samples.

Results

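The genes described here encode kinases of the phosphoinositide 3-kinase (PI3K) and AKT survival pathway in the rat hippocampus. Probes were taken by their gene name in the scanner files. The names Akt1, Akt2, Pik3ca, Pik3cb, Pik3c2a, Pik3r1, Pik3r2 and Pik3r4 gave 13 probes for 8 genes, of 30367 probes and 26583 gene names on the array. A probe was tested where all arrays of some group measured it well above background, which held for 12 of the 13 and for 22827 probes in all. A probe of Pik3ca, A_64_P101331, did not meet this, and 2 other Pik3ca probes met it through drug-treated groups alone.

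The hippocampi came from adult male Sprague-Dawley rats, with 1 rat per single-colour Agilent array. The 3 Naive rats had neither anesthesia nor handling, and the 2 Sham rats were anesthetised and prepared for injury without receiving it. The 3 TBI rats received a parasagittal fluid-percussion injury, a model of traumatic brain injury in which a pulse of fluid strikes the exposed dura. The other injured rats were also given a drug: 3 received PMI (PMI-006), 3 received JM6, known as an inhibitor of kynurenine 3-monooxygenase, and 2 received E33, an estrogen. Tissue of the Sham and injured rats was taken 24 h after injury or preparation. Per the methods each group had 3 rats, so that 1 Sham and 1 TBI+E33 rat were not analysed here. Whether the TBI rats received a vehicle is not given in the sources used here.

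Class I PI3Ks are pairs of a catalytic subunit, such as p110α (Pik3ca) or p110β (Pik3cb), and a regulatory subunit, such as p85α (Pik3r1) or p85β (Pik3r2). Growth factor receptors recruit the pair to the plasma membrane, where the lipid PIP3 is made and AKT is drawn to be phosphorylated. Active AKT phosphorylates GSK3, FOXO factors, BAD and TSC2, and in neurons this signalling opposes apoptosis and promotes protein synthesis. Activity depends on phosphorylation, which these arrays do not measure: the values below are levels of mRNA.

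Probe sequences are given for the AKT kinases, since the probes lie in a conserved part of the genes, and for Pik3ca, since its probes gave unequal differences from TBI. Coordinates are those of the array design, on build rn4. The Akt1 probe A_44_P282433 lies at chr6:137641146-137641205 on the minus strand, and the Akt2 probe A_43_P15267 at chr1:82725226-82725285 on the plus strand. Aligned without gaps, they overlap by 46 bases, of which 34 are identical (73.9%), shown here in capitals.
Akt1: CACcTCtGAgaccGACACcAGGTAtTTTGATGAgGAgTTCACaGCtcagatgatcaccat
Akt2: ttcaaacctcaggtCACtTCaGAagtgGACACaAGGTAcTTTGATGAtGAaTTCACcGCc
The Pik3ca probes follow from 5′ to 3′ along the plus strand of chromosome 2, from A_64_P101331 at chr2:118640649-118640708 to A_64_P066438 at chr2:118669148-118669207. The probe A_64_P111214 spans an exon junction, at chr2:118650104-118654600. A sixth probe, A_42_P562984 at chr2:118672155-118672214, lies 3′ of these.
Pik3ca A_64_P101331: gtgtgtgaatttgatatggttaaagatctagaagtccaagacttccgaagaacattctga
Pik3ca A_64_P130410: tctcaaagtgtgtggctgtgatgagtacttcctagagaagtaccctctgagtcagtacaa
Pik3ca A_64_P111214: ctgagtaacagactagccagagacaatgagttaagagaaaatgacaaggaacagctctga
Pik3ca A_64_P073033: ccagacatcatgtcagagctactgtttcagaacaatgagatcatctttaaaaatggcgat
Pik3ca A_64_P066438: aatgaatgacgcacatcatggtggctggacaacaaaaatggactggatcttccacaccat
The other genes had 1 probe each. Their probes lie at chr8:103886721-103886780 for Pik3cb, chr1:174433955-174435804 for Pik3c2a, chr2:32602673-32602731 for Pik3r1, chr16:19179278-19179337 for Pik3r2 and chr8:110789468-110790219 for Pik3r4. Those of Pik3c2a and Pik3r4 span exon junctions.

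All Naive, Sham and TBI arrays were scanned in 1 session and all arrays of drug-treated rats in another, called here the control session and the drug session. Between 16282 and 18245 probes were well above background per array in the control session, and between 20259 and 24984 in the drug session. Drug and session therefore cannot be told apart in any comparison of a drug group with TBI. Values are log2 of the signal over a scaling level, the 75th percentile of an array's probes above background, so 0 is that level and a difference of 1 is 2-fold. A difference was called at an adjusted p under 0.05 in limma, with Benjamini-Hochberg adjustment over all tested probes. As whole hippocampi were used, fewer cells of a type and less RNA per cell cannot be told apart. Of 50 cell type marker genes, 48 were tested. Syt1, Snap25, Gfap and Mbp were above background on all 16 arrays, whereas the neuronal marker Rbfox3 was so on 7 and Prox1, a marker of dentate granule cells, on 8.

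Of the AKT kinases, Akt2 was lower after injury than in Sham rats, and Akt1 differed in the same direction without passing the test. AKT1 is the most widely expressed AKT and is known for its part in cell survival and growth, while AKT2 is known for insulin-stimulated glucose uptake. Group means ± SD for Akt2 were -2.62 ± 0.20 in Sham (n = 2), -3.79 ± 0.34 in TBI (n = 3) and -3.54 ± 0.31 in Naive rats (n = 3). The log2 levels of Akt2 were -2.48 and -2.76 in the Sham rats and -3.66, -3.53 and -4.17 in the TBI rats. They were -3.21, -3.58 and -3.83 in the Naive rats. The Sham rats were thus above all TBI and Naive rats, and the TBI and Naive ranges overlapped. In TBI vs. Sham, Akt2 fell by 1.17 on the log2 scale (SE 0.31, 2.25-fold, limma adjusted p = 0.0354). In Sham vs. Naive it was higher by 0.92 (SE 0.31, adjusted p = 0.0903), and in TBI vs. Naive the difference was -0.25 (95% interval -0.85 to 0.35).

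Akt1 levels were -0.36 and -0.10 in the Sham rats, -0.54, -0.72 and -0.83 in the TBI rats, and -0.55, -0.51 and -0.72 in the Naive rats. Again the Sham rats lay above both other groups, which overlapped. The difference for TBI vs. Sham was -0.46 (SE 0.16, adjusted p = 0.0882), that for Sham vs. Naive 0.36 (SE 0.16, adjusted p = 0.203), and that for TBI vs. Naive -0.10 (95% interval -0.41 to 0.21). Over all tested probes limma called 1496 higher and 346 lower in Sham vs. Naive, and 667 higher and 1479 lower in TBI vs. Sham. With quantile normalization these were 750 and 563, and 850 and 968. The share of all tested probes with Sham rats above both other groups was not counted.

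**Figure D1:**
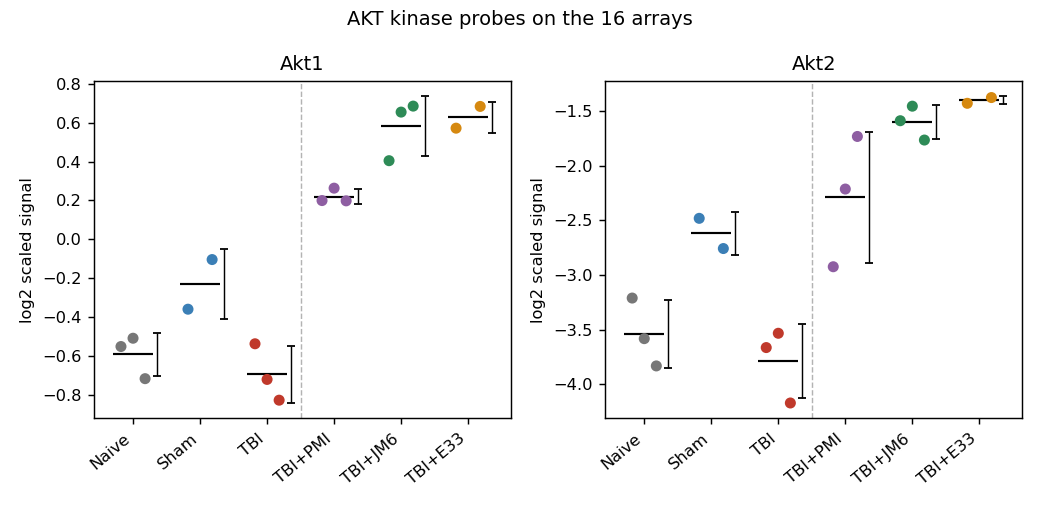
Scaled log2 signal (y axis) of the Akt1 and Akt2 probes on each array, by group (x axis). Points are rats, horizontal lines are group means and bars are SDs, and the dashed line parts the control session from the drug session. Sham rats lie above Naive and TBI rats for both genes, and the rats of the drug session lie above the TBI rats.

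Akt2 was the only probe of the 12 called in TBI vs. Sham, where 9.41% of all tested probes were called and 6.49% were called lower. Its call was lost with quantile normalization (-0.98, adjusted p = 0.105) and with the replicate number as a block. It was also lost when any 1 of 4 rats was left out (Sham 1 or 2, TBI 2 or 3, adjusted p from 0.062 to 0.176). No slide held both Sham and TBI rats, and Naive 3 was the only Naive rat on the slide of the TBI rats. A fixed slide block therefore rests on Naive 3 alone for the TBI side. With slide as a fixed block, so that both groups were set against the Naive rats on their own slides, the difference in Akt2 was -0.73 (adjusted p = 0.823), and with slide as a random block -1.22 (adjusted p = 0.0121). The random block had a correlation within slides of -0.087, and a negative value narrows the error of a difference between slides. It raised the calls over all tested probes from 2146 to 3802, so its lower p does not allow for slide. Of 48 tested markers, 3 were called higher and 6 lower in TBI vs. Sham. Lower were 2 of 6 neuronal, 2 of 6 oligodendrocyte, 1 of 6 endothelial and 1 of 6 microglial markers. Higher were 2 of 6 leukocyte markers and 1 of 6 microglial markers. With quantile normalization 2 were higher and 3 lower, with no neuronal marker among them. With the GC trend removed 4 were higher and 8 lower, and 4 of those lower were neuronal. The summed scaled signal of the neuronal markers was 30.9 to 35.5 in Sham, 19.3 to 26.6 in TBI and 19.5 to 26.2 in Naive rats, with Sham rats above both other groups as for Akt2. That of 6 choroid plexus markers, of which 4 were tested, reports tissue from the adjoining ventricle. It spanned 4.90 to 121.6 in Sham, 0.191 to 3.54 in TBI and 2.35 to 76.7 in Naive rats, the Naive range reaching above the TBI range. The part of these markers in the difference of Akt2 was not tested.

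Among the class I catalytic subunits, no probe was called between the 3 groups of the control session. Pik3cb, the p110β subunit, varied little, at -3.36, -3.12 and -3.16 in Naive, -3.20 and -3.07 in Sham, and -3.50, -3.20 and -3.33 in TBI rats. The groups of Pik3cb overlapped, and TBI vs. Sham was -0.21 (95% interval -0.57 to 0.15).

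Pik3ca, the p110α subunit, was measured by 3 probes that were above background on all 16 arrays. Probe A_64_P066438 read 0.11, -0.05 and -0.03 in Naive, -0.48 and -0.13 in Sham, and -0.34, -0.36 and -0.34 in TBI rats. Its Naive rats were above all others of the control session, and the share of all tested probes so parted was not counted. Its difference for TBI vs. Naive was -0.36 (SE 0.15, adjusted p = 0.186). With a trend on probe GC content removed from each array this difference passed the test (-0.48, adjusted p = 0.0439). Probe A_42_P562984 read -0.60, -0.48 and -0.69 in Naive, -0.69 and -0.56 in Sham, and -0.84, -0.54 and -1.0 in TBI rats. Probe A_64_P073033 read -2.83, -3.38 and -3.18 in Naive, -3.40 and -2.65 in Sham, and -3.41, -3.60 and -3.95 in TBI rats. For this last probe all TBI rats were below all Naive and Sham rats, though TBI 1 (-3.41) and Sham 1 (-3.40) were nearly equal. Here too the share of all tested probes so parted was not counted. The group means differed by -0.63 against Sham (SE 0.30, adjusted p = 0.211) and -0.52 against Naive (SE 0.27, adjusted p = 0.297). Probes A_64_P111214 and A_64_P130410 were each above background on 1 of 8 arrays of the control session (Naive 2 and TBI 1, respectively), and A_64_P101331 on none, so that no fold is given for them there.

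Of the class I regulatory subunits, Pik3r2 had levels in Sham rats above those of both other groups, as for the AKT kinases. Pik3r2 read 0.83 and 0.87 in Sham, 0.61, 0.14 and 0.40 in TBI, and 0.67, 0.40 and 0.19 in Naive rats. The difference was -0.47 for TBI vs. Sham (SE 0.18, adjusted p = 0.114) and 0.43 for Sham vs. Naive (SE 0.18, adjusted p = 0.166), and neither passed the test. Pik3r1 read -2.24 and -1.63 in Sham, -2.35, -2.10 and -2.25 in TBI, and -2.32, -2.24 and -2.53 in Naive rats, with overlapping groups.

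The class III regulatory subunit Pik3r4, known as VPS15 and a partner of the lipid kinase VPS34 in autophagy, had its highest control levels in Naive rats. It read -1.57, -1.38 and -1.73 in Naive, -1.92 and -1.96 in Sham, and -1.86, -1.92 and -1.76 in TBI rats. All Naive rats were above all Sham and TBI rats, and the share of all tested probes so parted was not counted. Sham vs. Naive was -0.38 (SE 0.17, adjusted p = 0.209). This difference passed the test with quantile normalization (-0.50, adjusted p = 0.0472). Pik3c2a, a class II kinase of endocytic membranes, was dim: it was not above background in Naive 3 and Sham 1. It read -5.95, -5.54 and -6.22 in Naive, -6.16 and -5.92 in Sham, and -5.42, -5.38 and -5.62 in TBI rats, with a difference of 0.57 for TBI vs. Sham (95% interval -0.30 to 1.43).

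No probe of the 12 was called in TBI vs. Naive, where limma called 4.71% of all tested probes. In that comparison 1 of the 12 had an unadjusted p under 0.05, beside 4761 of all 22809 tested probes. None was called in Sham vs. Naive, against 8.08% of all tested probes. There 4 of the 12 had an unadjusted p under 0.05 (Akt1, Akt2 and Pik3r2 higher in Sham, Pik3r4 lower), beside 5183 of all 22784 tested probes. The methods' t-test, at its unadjusted threshold, passed 3 of the 12 in TBI vs. Sham, beside 13.5% of all tested probes, 1 in TBI vs. Naive, beside 13.9%, and 1 in Sham vs. Naive, beside 16%. These comparisons share their Sham and Naive arrays.

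Compared with untreated TBI rats, all 12 tested probes read higher in each group of drug-treated rats, but so did most of the array, and the direction depended on the scaling. In TBI+PMI vs. TBI, 11 of 12 were called higher, beside 56.7% of the whole array's tested probes, and Pik3ca A_42_P562984 was not called. In TBI+JM6 vs. TBI it was 11 of 12, beside 69.9%, and in TBI+E33 vs. TBI 11 of 12, beside 70.2%. Pik3c2a was not called in either. Setting aside the 2 probes that passed the filter through drug groups alone, 9 of 10 were called higher in each comparison. The percentages of all probes treated in the same way were 50.3%, 64.5% and 64.1%. Over these 10 probes the median log2 difference was 0.86, 0.83 and 0.90, beside medians of 0.61, 0.77 and 0.82 over all probes so treated. These comparisons share the 3 TBI arrays. Of the 48 tested marker genes, 18, 19 and 21 were called higher with PMI, JM6 and E33 and none lower, whereas with the GC trend removed 16, 17 and 16 were called lower. The summed scaled signal of the astrocyte markers was 22.8 to 23.3 in TBI and 28.3 to 50.1 over the drug-treated rats, and that of the neuronal markers was 19.3 to 26.6 in TBI and 28.7 to 45.6 over the drug-treated rats. Such a sum weighs the brightest markers most. Of 6 astrocyte markers, 1, 2 and 4 were called higher with PMI, JM6 and E33, and of 6 neuronal markers 5, 6 and 4. With the GC trend removed, 4, 4 and 3 astrocyte markers were called lower and 1, 1 and 1 higher. Of the neuronal markers 2, 3 and 3 were then lower and 0, 0 and 1 higher. The part of cell makeup in the differences below was not tested. Nor was the share of all tested probes counted for which every drug-treated rat read above the control session.

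Akt2 had the largest of these differences among genes with a single probe. Its levels were -2.92, -2.21 and -1.73 in TBI+PMI, -1.59, -1.46 and -1.77 in TBI+JM6, and -1.43 and -1.38 in TBI+E33 rats. All were above the TBI rats, and all but PMI 1 were above both Sham rats. The log2 difference from TBI was 1.5 (SE 0.28, limma adjusted p = 0.000733) with PMI, 2.19 (SE 0.28, adjusted p = 3.49e-05) with JM6 and 2.39 (SE 0.31, adjusted p = 5.06e-05) with E33. With quantile normalization, which gives all arrays the same distribution, these were 0.56 (adjusted p = 0.236), 1.14 (adjusted p = 0.0217) and 1.30 (adjusted p = 0.0258). With the GC trend removed they were 0.52 (adjusted p = 0.208), 1.0 (adjusted p = 0.021) and 1.11 (adjusted p = 0.0222). Akt2 thus read higher than in TBI under each of these scalings, and passed the test under all of them with JM6 and E33.

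Akt1 read 0.20, 0.26 and 0.20 in TBI+PMI, 0.40, 0.65 and 0.69 in TBI+JM6, and 0.57 and 0.68 in TBI+E33 rats, above every rat of the control session. The log2 difference from TBI was 0.92 (SE 0.14, adjusted p = 0.000257), 1.28 (SE 0.14, adjusted p = 1.58e-05) and 1.32 (SE 0.16, adjusted p = 3.31e-05). With quantile normalization it was 0.36, 0.59 and 0.62, and was called with JM6 (adjusted p = 0.00541) and E33 (adjusted p = 0.00902) but not with PMI (adjusted p = 0.0553). With the GC trend removed the sign turned, to -0.18, -0.04 and -0.11, and none was called. The Akt1 probe has 48.3% G and C bases and the Akt2 probe 45%.

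**Figure D2:**
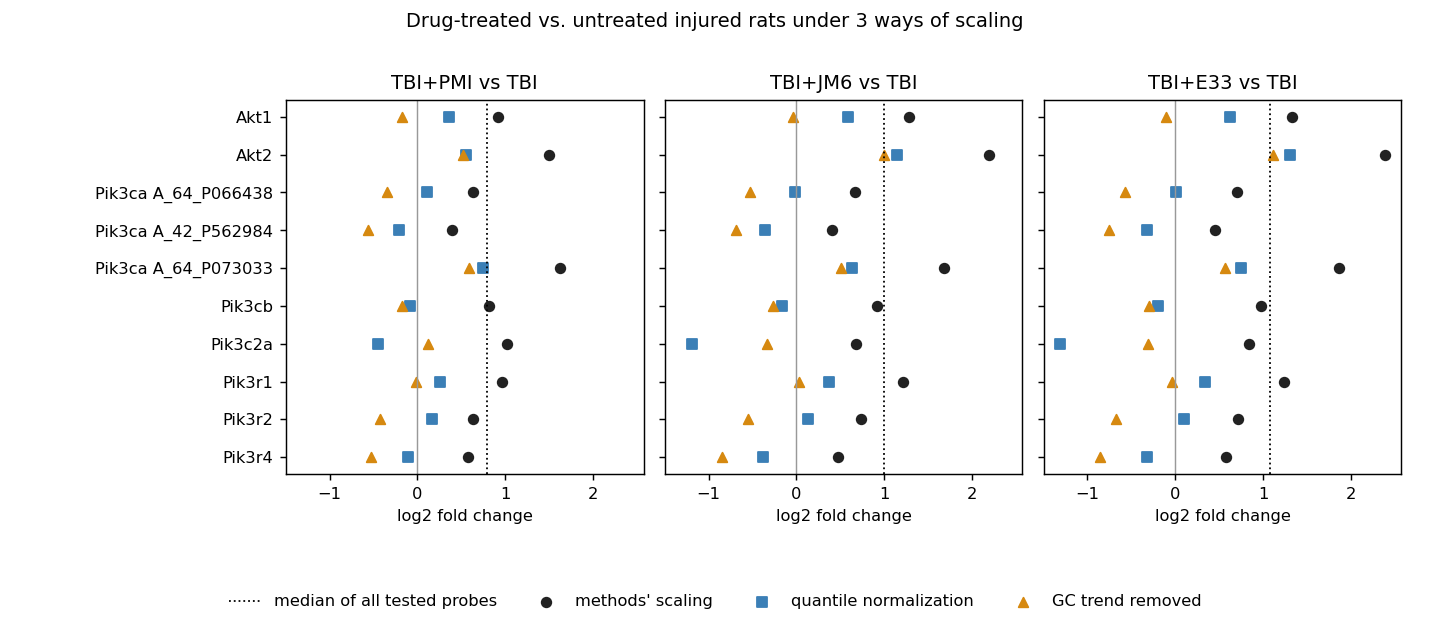
Log2 fold change (x axis) of 10 member probes (y axis) in each drug group against TBI, with the methods' scaling (circles), quantile normalization (squares) and the GC trend removed (triangles). The dotted line is the median of all tested probes with the methods' scaling (0.79, 0.99 and 1.08). Akt2 and Pik3ca A_64_P073033 stay above 0 under each scaling, whereas Pik3ca A_42_P562984, Pik3cb and Pik3r4 fall below 0 with the other scalings.

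The 3 Pik3ca probes that were above background on all 16 arrays gave differences from TBI of unequal size. The levels of the most 3′ probe, A_42_P562984, were -0.27, -0.32 and -0.62 in TBI+PMI, -0.46, -0.53 and -0.18 in TBI+JM6, and -0.43 and -0.25 in TBI+E33 rats, and its differences from TBI were 0.39, 0.40 and 0.45. At A_64_P066438, 3.01 kb further 5′ in the genome, levels ran from 0.07 to 0.43 over the drug session and the differences were 0.63, 0.66 and 0.71. At A_64_P073033, 11 kb 5′, levels ran from -2.44 to -1.58 and the differences were 1.62, 1.68 and 1.86. The 2 probes nearest the 3′ end were thus below the median of all tested probes, and A_64_P073033 above it. A_64_P073033 was also the dimmest of the 3, with a mean log2 level over all arrays of -2.63, against -0.53 for A_42_P562984 and 0.06 for A_64_P066438. Place along the gene and signal were not separated, and their parts were not tested.

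The 2 probes A_64_P111214 and A_64_P130410 were tested because drug-treated groups measured them, so their rise over TBI was set by that choice and is given as a description with no test. Probe A_64_P111214, 17.6 kb 5′, was above background on all 8 arrays of the drug session, with levels from -4.80 to -3.77, and on no TBI array. Against the lowest signal above background on the TBI arrays it was at least 3.43-fold higher with PMI, at least 3.39-fold with JM6 and at least 3.29-fold with E33. Probe A_64_P130410, 31.1 kb 5′, was also above background on all 8 arrays of the drug session, from -5.16 to -4.39, and on 1 of 3 TBI arrays, where it read -5.83. Probe A_64_P101331, 31.5 kb 5′, was above background on 1 array of each drug group and on no TBI array, which leaves no fold to give.

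The 2 other probes measured on all 16 arrays were also set against A_42_P562984 within each array, as a difference in log2 level that the scaling level cannot change. This was done after the unequal differences had been seen, on the same arrays, so it is given as a description with no test. Between the sessions this quantity was higher in the drug session by 0.22 for A_64_P066438 and by 1.05 for A_64_P073033. The 8 arrays of the drug session did not overlap the 8 of the control session for A_64_P073033. How often other pairs of probes were so parted was not counted. For A_64_P066438 the sessions overlapped. Session and drug cannot be told apart in these values.

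**Figure D3:**
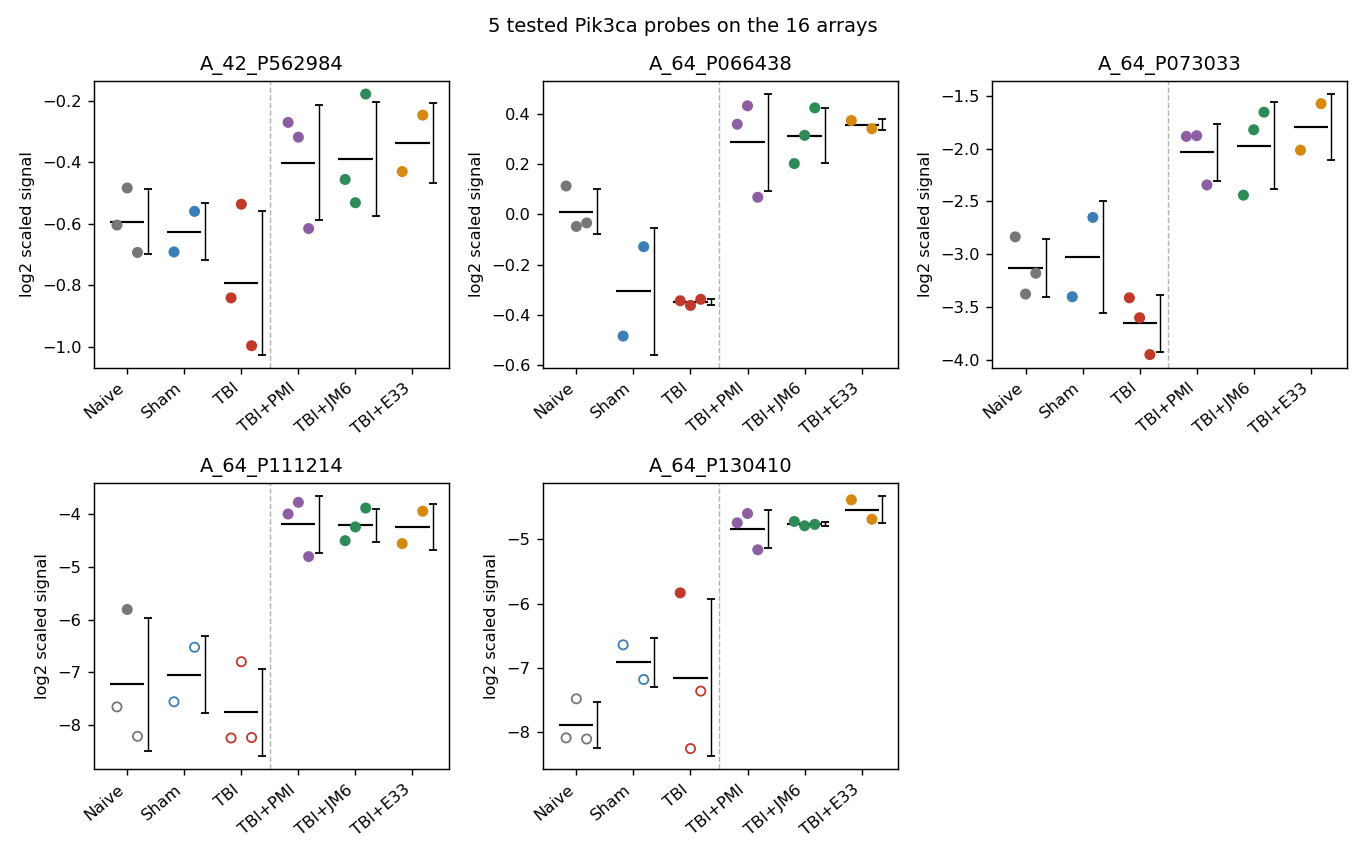
Scaled log2 signal (y axis, a range of its own in each panel) of the 5 tested Pik3ca probes on each array, by group (x axis), from the most 3′ probe to the most 5′. Filled points are arrays on which the probe was above background, open points are not, lines are means, bars are SDs, and the dashed line parts the sessions. The lower panels show the 2 probes tested through drug groups alone, each above background on 1 of 8 arrays of the control session.

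The other subunits read higher than in TBI by amounts nearer the median of the array. Pik3cb read -2.61, -2.31 and -2.68 in TBI+PMI, -2.42, -2.38 and -2.48 in TBI+JM6, and -2.45 and -2.29 in TBI+E33 rats, above every rat of the control session. Its differences of 0.81, 0.92 and 0.97 became -0.08, -0.16 and -0.20 with quantile normalization, none of which was called. Pik3r1 read -1.14, -1.19 and -1.47 with PMI, -1.27, -1.18 and -0.60 with JM6, and -1.07 and -0.93 with E33, also above all control arrays. Its differences were 0.97, 1.22 and 1.23 and, with quantile normalization, 0.26, 0.37 and 0.33, not called.

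Pik3r2 read 0.93 to 1.16 over 8 arrays, all above the control session. Its differences of 0.63, 0.74 and 0.71 were 0.17, 0.13 and 0.09 with quantile normalization and -0.43, -0.55 and -0.68 with the GC trend removed, the last 2 called lower (adjusted p = 0.0419 and 0.0279). Pik3r4 read -1.15, -1.16 and -1.51 with PMI, -1.46, -1.42 and -1.26 with JM6, and -1.40 and -1.14 with E33, above all TBI and Sham rats but overlapping the Naive rats. Its differences of 0.57, 0.47 and 0.58 were -0.10, -0.38 and -0.32 with quantile normalization, called lower with JM6 (adjusted p = 0.0319). With the GC trend removed Pik3r4 was called lower with all 3 drugs (-0.52, -0.85 and -0.85).

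Pik3c2a read -4.01, -3.83 and -5.54 in TBI+PMI, -4.96, -4.83 and -4.60 in TBI+JM6, and -4.84 and -4.44 in TBI+E33 rats. The third PMI rat was not above background and lay within the TBI range. The difference was 1.02 with PMI (SE 0.36, adjusted p = 0.0281), 0.68 with JM6 (adjusted p = 0.104) and 0.83 with E33 (adjusted p = 0.0771). With quantile normalization it was -0.45, -1.19 and -1.31, and called lower with JM6 (adjusted p = 0.0155) and E33 (adjusted p = 0.0217).

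**Figure D4:**
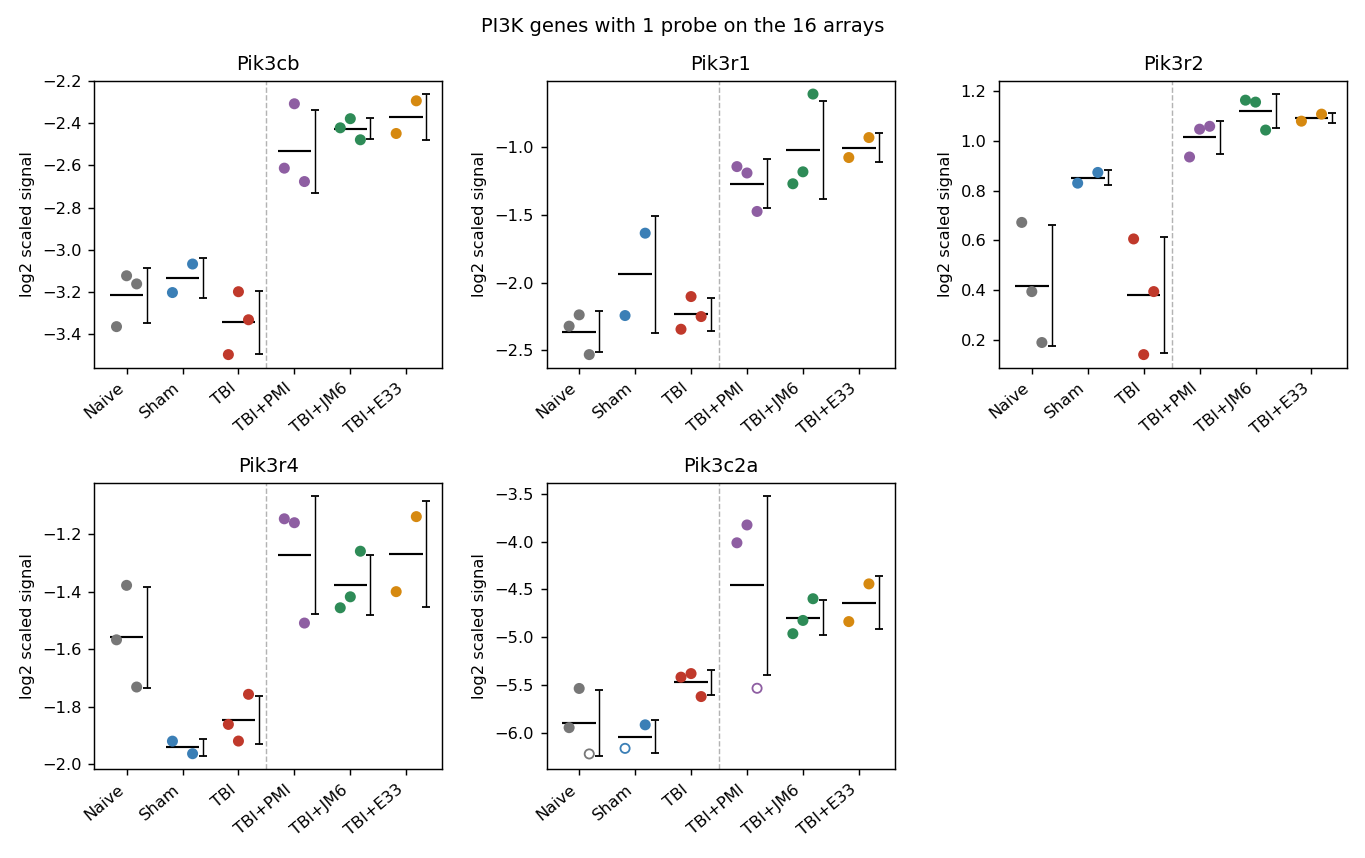
Scaled log2 signal (y axis) of the PI3K genes with 1 probe, on each array by group (x axis). Filled points are arrays on which the probe was above background, open points are not, lines are means, bars are SDs, and the dashed line parts the sessions. Pik3cb, Pik3r1 and Pik3r2 of the drug session lie above all control arrays, and Pik3r4 overlaps the Naive rats. The share of all tested probes so parted was not counted.

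By quantile normalization, which called 9.96% of all tested probes higher and 9.21% lower in TBI+PMI vs. TBI, 2 of the 12 probes were called higher and none lower. In TBI+JM6 vs. TBI it called 3 higher and 3 lower, beside 13.9% higher and 13.3% lower over the array, and in TBI+E33 vs. TBI 2 higher and 1 lower, beside 10.4% and 10%. Without the 2 Pik3ca probes tested through drug groups alone, 1 of 10 was higher and none lower with PMI, 2 higher and 3 lower with JM6, and 2 higher and 1 lower with E33. All probes so treated were higher in 7.14%, 11.3% and 7.64% and lower in 10.8%, 16.3% and 12.1%. With the GC trend removed, 2 were called higher and 3 lower in TBI+PMI vs. TBI, beside 15.5% and 29.9% over the array. The same setting gave 2 higher and 4 lower in TBI+JM6 vs. TBI, beside 18.8% and 32.4%, and 2 higher and 4 lower in TBI+E33 vs. TBI, beside 17.8% and 31.4%. Without the same 2 probes, none of 10 was higher with PMI and 1 each with JM6 and E33, which was Akt2, while the 3, 4 and 4 called lower were as before. All probes so treated were then higher in 6.76%, 9.2% and 6.93% and lower in 38.8%, 42.2% and 41%. The split of the members between higher and lower was therefore set by the scaling, apart from the probes named above that kept 1 sign.

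Within the drug session, where drug groups can be compared without the session, no member was called between any of the 3 pairs of drugs. The share of all tested probes that limma called was 0.0131% for TBI+JM6 vs. TBI+PMI, 0.11% for TBI+E33 vs. TBI+PMI and 0.0175% for TBI+JM6 vs. TBI+E33. The AKT kinases came nearest to the threshold, and against PMI both had an unadjusted p under 0.05, which no other member had. Over the array, 2018 of 22827 tested probes had such a p in TBI+JM6 vs. TBI+PMI and 3421 of 22824 in TBI+E33 vs. TBI+PMI. Akt1 was higher with JM6 than with PMI by 0.36 (95% interval 0.05 to 0.67, adjusted p = 0.5), and with E33 than with PMI by 0.41 (0.06 to 0.76, adjusted p = 0.258). The 3 PMI rats were below all 5 others, and the share of all tested probes so parted was not counted. Akt2 was higher with JM6 than with PMI by 0.69 (0.09 to 1.29, adjusted p = 0.506), and with E33 than with PMI by 0.89 (0.22 to 1.56, adjusted p = 0.209). The third PMI rat overlapped the JM6 rats for Akt2. Between JM6 and E33, Akt1 differed by -0.05 (-0.39 to 0.30) and Akt2 by -0.20 (-0.87 to 0.47).

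JM6 1 shared a slide with the PMI rats and the other JM6 rats shared a slide with the E33 rats. No slide held both PMI and E33 rats, so drug and slide cannot be told apart in the values above for E33 vs. PMI. With slide as a block, JM6 vs. PMI rests on JM6 1 alone, and was 0.18 for Akt1 and 0.70 for Akt2, with neither called. For the other genes the intervals of the drug differences included 0 in all 3 pairs. They were widest for Pik3c2a and the 5′ probes of Pik3ca, and narrower for Pik3ca A_64_P066438 (JM6 vs. PMI 0.03, -0.29 to 0.35) and Pik3r2 (0.11, -0.24 to 0.45). Differences among drugs of up to the ends of these intervals remain possible with these few arrays. The doses and routes of the drugs differed.

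**Figure D5:**
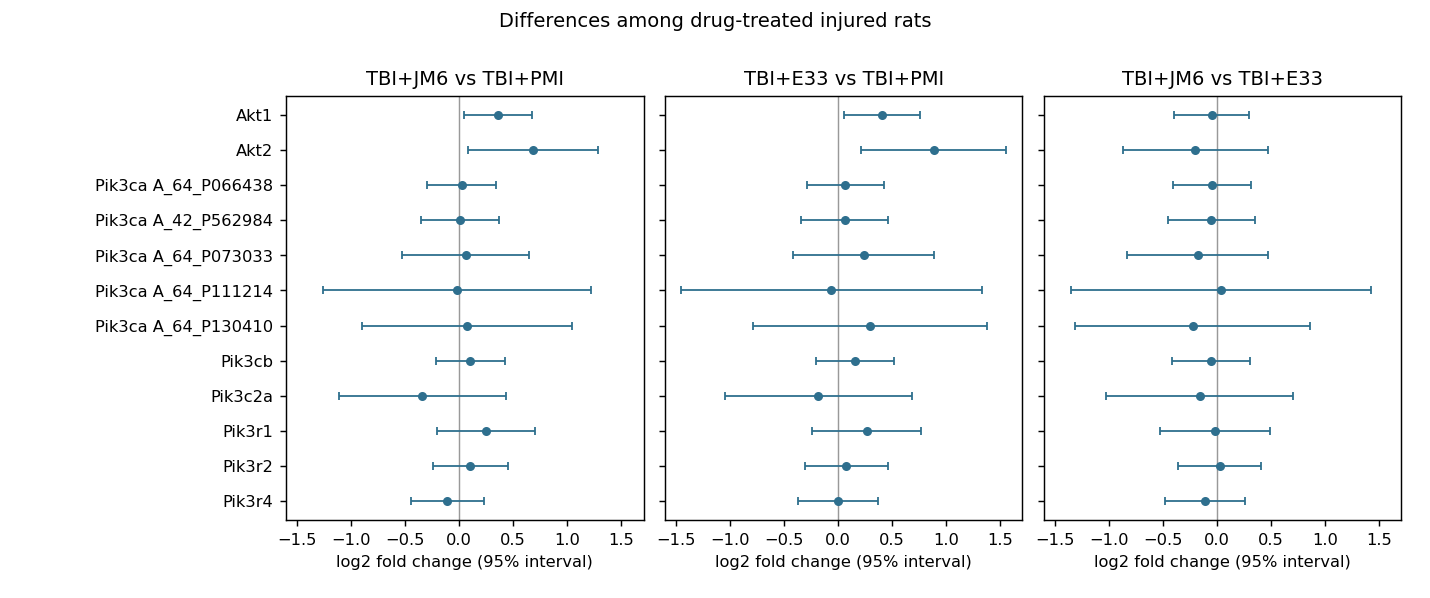
Log2 fold change with its 95% interval (x axis) of the 12 tested probes (y axis) for each pair of drugs within the drug session. The intervals of Akt1 and Akt2 lie above 0 for JM6 and E33 against PMI before adjustment, and all other intervals include 0.

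The wider pathway was described with a list of 56 genes, which holds receptors and adaptors, all classes of PI3K, the kinases that activate AKT, the phosphatases that oppose it and the substrates of AKT. Of these, 53 had a probe and 51 were tested, 43 beside the members. In TBI vs. Sham, 3 of the 43 were lower and none higher: the forkhead factor Foxo4 (-1.83, SE 0.28, adjusted p = 0.00581), the glycogen synthase kinase Gsk3a (-1.34, SE 0.29, adjusted p = 0.0168) and Akt1s1, the mTORC1 inhibitor PRAS40 (-0.85, adjusted p = 0.0432). The call of Akt1s1 was lost with quantile normalization (adjusted p = 0.0989) and with the GC trend removed (adjusted p = 0.131), and those of Foxo4 and Gsk3a were kept under both. Since no slide held both Sham and TBI rats, injury and slide are not set apart in these calls. Foxo4, Gsk3a and Akt1s1 all encode substrates of AKT. The count is 6.98% of the 43, near the 6.49% of all tested probes called lower. Foxo4 read -2.09 and -1.85 in Sham, -4.07, -3.51 and -3.82 in TBI and -2.93, -3.66 and -3.68 in Naive rats, and was higher in Sham vs. Naive (1.45, adjusted p = 0.00979), which was lost with quantile normalization (1.16, adjusted p = 0.0543). Sham rats lay above both other groups, as for Akt2.

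Ntrk2, the TrkB receptor of BDNF, was lower than in Naive rats in both TBI rats (-0.98, adjusted p = 0.0398) and Sham rats (-1.20, adjusted p = 0.0192). It read 1.24 and 1.5 in the Naive rats measured, -0.21 and 0.54 in Sham, and 0.58, 0.49 and 0.09 in TBI rats; its spot on Naive 1 was flagged as an outlier by the scanner software and dropped. Gab1, an adaptor of receptor tyrosine kinases, was above background on both Sham arrays and no Naive array, at least 2.42-fold higher (adjusted p = 0.0349). This call too was lost with quantile normalization (adjusted p = 0.0819).

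Of the 43, 8 passed the filter through drug groups alone, and against TBI the counts are therefore given for the other 35. With PMI 17 of the 35 were called higher, with JM6 25 and with E33 26, and none lower. These are to be read beside the 50.3%, 64.5% and 64.1% of all probes so treated. With quantile normalization the 35 gave 2 higher and 7 lower with PMI, 2 and 5 with JM6, and 2 and 2 with E33. With the GC trend removed most calls were lower: 2 higher and 15 lower with PMI, 2 and 14 with JM6, and 1 and 13 with E33. The largest fitted rises of the 43 were those of Irs1, an adaptor of the insulin and IGF1 receptors, Tsc1, a brake on mTORC1, and Pik3r3, the p55γ regulatory subunit. All 3 are among the 8, so that they were tested because they were high in drug-treated groups, and no test is given for them. Irs1 and Tsc1 were above background on 1 of 3 TBI arrays and on all 8 of the drug session. Pik3r3 was above background on no array of the control session, and was at least 1.78-fold higher with JM6 and at least 2.20-fold higher with E33 than the lowest signal above background on the TBI arrays. Its spot on PMI 1 was dropped as an outlier. Between drugs none of the 43 was called.

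Over the 16 arrays, after the mean of each session was subtracted, the probes most like Akt1 among 14295 above background on all arrays were those of Ccdc97 (Pearson r = 0.969), Esrra (0.960) and Clip2 (0.959). Those most like Akt2 were Paqr7 (0.95), Kifc3 (0.948) and Znf691 (0.942). Akt1 and Akt2 had a correlation of 0.775 with each other. The arrays share their scaling, and these values describe the 16 arrays without a test. Pik3r2 had r = 0.672 with Akt1 and 0.690 with Akt2, whereas Pik3r4 had -0.14 and -0.42 and Pik3ca A_64_P066438 had 0.18 and -0.15.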

How the data were processed

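Hippocampal RNA was hybridised to single-colour Agilent rat 4x44K arrays. Per the methods it was amplified with 1 of 2 kits, and which kit was used for which rat is not given in the sources used here. The authors extracted the deposited signal intensity with Agilent Feature Extraction 9.5.3.1, which subtracts background, and scaled it in GeneSpring to the 75th percentile of probes above background on each array. Per the methods, the authors normalized the ratios in the deposited value table to that percentile before deposit. The table, with no negative values, was used as an alternative. Its values correlated with the scanner values at 0.981 to 0.999 per array. Over all tested probes, its median log2 difference from TBI was -0.003 with PMI, -0.004 with JM6 and -0.002 with E33. With the scaling of the main fit these medians were 0.79, 0.99 and 1.08. The table thus did not behave as ratios to the percentile as computed here, and its centring is not stated.

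From the scanner files, flagged outlier spots were left out, spots of a probe were averaged, and a probe counted as above background where at least 0.5 of its spots were. The signal was divided by the 75th percentile of probes above background, computed here for each array, and log2 was taken of the deposited intensity so scaled. Limma 3.58.1 (R 4.3.3) fitted 1 mean per group over all 16 arrays, with Benjamini-Hochberg adjustment over the 22827 tested probes and calls under 0.05. The number of arrays limits the precision, and fits with 2 rats in a group share the spread of the other groups. The fit was tested on simulated data. Groups came from the sample labels, and each array is 1 rat.

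Each member probe was reported by itself. Other pathway genes were counted by their brightest tested probe and named where called, with at most 3 rises and 3 falls per comparison. The members, lists and rules were chosen with earlier results of these data known. Lower bounds set the mean of the brighter group against, per array, the higher of the lowest signal above background and the probe's own. Alternatives were quantile normalization, a scaling level taken from every probe of the array, normexp with an offset of 50, removal of a GC trend, other filters, the value table, the methods' t-test, slide and replicate blocks, limma on the compared groups alone and leaving out each rat. In no comparison with 3 pairs did the deviations of same-numbered rats from their group means correlate above 0.1 in every pair (0.041 to 0.092 in TBI+PMI vs. TBI). In TBI vs. Sham, which has 2 pairs, both did (0.182 and 0.156). The numbers were not taken as pairs in the main fit, and a replicate block is given as an alternative. Protein sequences and a genome of build rn4 were not used here. Figures were drawn with matplotlib 3.10.9.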

Additional observations from a re-analysis of the deposited data

How the results depend on the processing

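Akt2 in TBI vs. Sham was the 1 member called there. That count was 0 with quantile normalization, a scaling level taken from every probe, normexp, the GC trend removed, no filter on dim probes, the authors' value table, the methods' t-test after Benjamini-Hochberg, limma on the compared groups alone, a fixed slide block and the replicate block (Akt2 -1.14, adjusted p = 0.0698). It was 3 with a random slide block and with the methods' t-test unadjusted. Leaving out 1 rat gave 0 to 3. In TBI vs. Naive, 1 member was called with the GC trend removed and with the unadjusted t-test, and 0 without any 1 rat. In Sham vs. Naive, 1 was called with quantile normalization, a scaling level from every probe, the value table and the unadjusted t-test. For PMI, JM6 and E33 against TBI, the 11 called became 2, 6 and 3 with quantile normalization, 4, 7 and 6 with a scaling level from every probe, 2, 6 and 4 with normexp, 5, 6 and 6 with the GC trend removed, and 3, 7 and 5 with the value table. Leaving out 1 rat gave 10 to 12, 9 to 11 and 9 to 11. Between drugs, the unadjusted t-test passed 1 member in JM6 vs. PMI and 1 in E33 vs. PMI, and the other alternatives passed 0.

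The values that follow are of probes called in that comparison with the methods' scaling. With the scaling level taken from every probe, the log2 difference from TBI changed sign for Pik3ca A_42_P562984 -0.39 and -0.38 (JM6 and E33), Pik3ca A_64_P066438 -0.011, -0.13 and -0.13 (PMI, JM6 and E33), Pik3r2 -0.014, -0.051 and -0.12 (PMI, JM6 and E33) and Pik3r4 -0.071, -0.32 and -0.25 (PMI, JM6 and E33). With the GC trend removed, the log2 difference from TBI changed sign for Akt1 -0.18, -0.039 and -0.11 (PMI, JM6 and E33), Pik3ca A_42_P562984 -0.68 and -0.76 (JM6 and E33), Pik3ca A_64_P066438 -0.35, -0.53 and -0.57 (PMI, JM6 and E33), Pik3cb -0.17, -0.27 and -0.30 (PMI, JM6 and E33), Pik3r1 -0.016 and -0.041 (PMI and E33), Pik3r2 -0.43, -0.55 and -0.68 (PMI, JM6 and E33) and Pik3r4 -0.52, -0.85 and -0.85 (PMI, JM6 and E33). With the authors' value table, the log2 difference from TBI changed sign for Pik3c2a -0.44 (PMI), Pik3ca A_42_P562984 -0.34 and -0.30 (JM6 and E33), Pik3ca A_64_P066438 -0.013 (JM6), Pik3cb -0.081, -0.15 and -0.20 (PMI, JM6 and E33) and Pik3r4 -0.083, -0.37 and -0.31 (PMI, JM6 and E33). With normexp, the log2 difference from TBI changed sign for Pik3c2a -0.20 (PMI). With quantile normalization, the log2 difference from TBI changed sign for Pik3c2a -0.45 (PMI), Pik3ca A_42_P562984 -0.35 and -0.32 (JM6 and E33), Pik3ca A_64_P066438 -0.021 (JM6), Pik3cb -0.083, -0.16 and -0.20 (PMI, JM6 and E33) and Pik3r4 -0.10, -0.38 and -0.32 (PMI, JM6 and E33). Of the values not called with the methods' scaling, those of Pik3c2a with JM6 and E33 turned to -1.19 and -1.31 with quantile normalization and to -1.06 and -1.11 with the value table, all called lower, and to -0.34 and -0.31 with the GC trend removed. That of Pik3ca A_42_P562984 with PMI turned to -0.21 with quantile normalization, -0.19 with the value table, -0.26 with a scaling level from every probe and -0.57 with the GC trend removed, the last called lower (adjusted p = 0.0016). Pik3c2a also turned to -0.11 (JM6) with a scaling level from every probe and to -0.03 (E33) with normexp.

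With a replicate block the members called were 11 with PMI, 11 with JM6 and 10 with E33, and no other call between drugs or against Naive changed. Of 192 values of the called members without 1 rat, 174 passed as before, 18 no longer passed and 0 changed sign. Those that no longer passed were Akt2 in TBI vs. Sham, Pik3c2a with PMI, Pik3ca A_42_P562984 with JM6 and E33, and Pik3r4 with JM6 and E33. Signal over background limits Pik3c2a and the 5′ probes of Pik3ca. The cause of these changes was not tested.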
